A study of Mus musculus with 8 samples.

Results

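Colon inflammation after dextran sodium sulfate (DSS) was examined in 4 of the 8 libraries of the study: 2 labelled PC, from mice given DSS, and 2 labelled NC, from mice given saline in its place. All were wild-type C57BL/6 mice, and the tissue is labelled only as intestinal. PC mice drank water with 3% DSS for 6 days, while NC mice had no DSS. Both groups had been gavaged with phosphate buffered saline beforehand, as the controls of an oral pretreatment with bovine colostrum exosomes that lasted 3 weeks. That pretreatment, of 1 mg a day, was given to the 4 other libraries, labelled ExDSS (exosomes, then DSS) and Ex (exosomes, no DSS). The libraries were chosen by their labels alone, and all 23282 lines of the deposited count table were used. The labels give no age, sex or gut region, and do not state whether each library is a mouse of its own. The p-values thus reflect library-to-library spread, which could be technical.

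DSS is a sulfated polysaccharide that damages the colonic epithelium of mice when it is drunk. Bacterial products then reach the lamina propria, and neutrophils and monocytes enter the tissue under the direction of chemokines and cytokines such as interleukin 1 beta. Stressed epithelium is known to secrete acute phase proteins and antimicrobial lectins, and stromal cells to secrete matrix proteases.

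The direction of the inflammatory genes in these libraries was opposite to that background: they were low in both libraries labelled PC and high in both labelled NC. Every value is therefore given for each library, and "lower in PC" refers to the label. Whether labels were exchanged was not tested, and if they were, each direction given here would turn round. The libraries held 10158929 (PC 1), 10412457 (PC 2), 11405200 (NC 1) and 12308537 (NC 2) counts. The number of genes with a count was 16787, 16790, 16123 and 12683 in the same order. NC 2 stood apart. Its transcripts of pancreatic acinar cells, the cells that make digestive enzymes, held 9.69% of all counts, against 0.114% and 0.201% in PC 1 and PC 2 and 0.0268% in NC 1. The ribosomal RNA precursor Rn45s held 7.35% and 11.1% of counts in the PC libraries, 5.12% in NC 1 and 0.407% in NC 2. Over 10313 genes with a mean of at least 5 CPM (counts scaled to library size), 26 differed by 4-fold or more between PC 1 and PC 2 (0.252%), against 2422 between NC 1 and NC 2 (23.5%). PC 1 and NC 1 differed that far in 533 genes (5.17%), and PC 1 and NC 2 in 3149 (30.5%). Of 4943 genes with at least 20 CPM in both PC libraries, 2 were under 1 CPM in NC 1 and 125 in NC 2. Intestinal epithelium was present in all 4 libraries. The epithelial adhesion gene Epcam was at 692 and 696 CPM in PC 1 and PC 2, against 571 and 552 CPM in NC 1 and NC 2. The keratin gene Krt8 was at 1199 and 1148 CPM in PC and 1065 and 1736 CPM in NC. All 16 identity genes had counts in all 4 libraries except Lgals4, at 18.6 and 24.1 CPM in PC and 13.5 and 0 CPM in NC. One of them stood apart: Lgals3, which encodes galectin 3, at 2051 and 1856 CPM in PC against 413 and 363 CPM in NC.

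The comparison asks which genes DSS alone moved. Counts were scaled with edgeR's TMM factors and are given below as normalised CPM, the first value of each pair from library 1 and the second from library 2. The quasi-likelihood test of edgeR, fitted over all 8 libraries, called 0 of 14567 genes higher and 0 lower in PC at a Benjamini-Hochberg adjusted p under 0.05 (0% each). At an unadjusted p under 0.05 there were 100 higher (0.686%) and 263 lower (1.81%). DESeq2 called 6 higher (0.0488%) and 77 lower (0.626%) among the 12307 genes to which it gave an adjusted p. Over all genes tested the log2 fold changes had a median of 0.10, and 53.3% of them had a positive value. Gene lists are read below against these values, with the median ratio of the PC mean to each NC library beside the median of the fit. Over all genes tested the log2 of that ratio had a median of 0.02 against NC 1 and 0.42 against NC 2. A list near 0.42 against NC 2 is thus near all genes. Each ratio adds 0.5 CPM and uses 1 NC library, unlike the fit, so the fit median can lie outside both. The 1125 genes of the lists, of which 1016 were tested, gave 0 edgeR calls in either direction. With 2 libraries a group, a permutation test of 1 gene cannot go below p = 0.333. Genes were therefore also described by a rule with no test: a gene was set apart when both PC libraries lay at least 4-fold above, or below, both NC libraries, at a mean of at least 5 CPM and with 0.5 CPM added. By this rule 65 genes were higher in PC (0.63%) and 185 were lower (1.79%) of 10313. Counts of genes set apart in the lists below are read against these shares. A gene that reaches 5 CPM through 1 group alone can be set apart only as higher in that group, so these counts carry no test. Without NC 2 the counts were 116 higher and 283 lower. Without NC 1 they were 1658 and 1119, and without PC 1 there were 107 higher. Leaving out a library makes the rule easier to meet, so part of each rise follows from the rule.

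**Figure D1:**
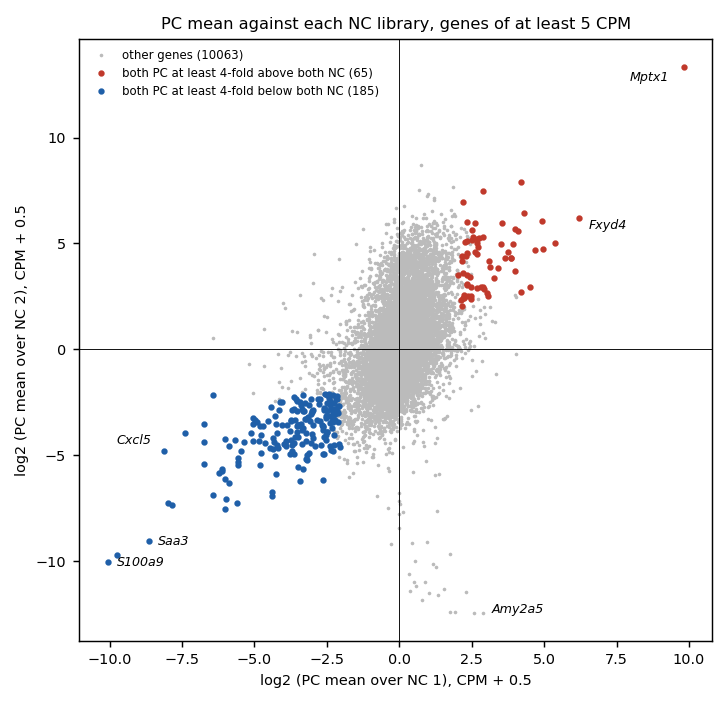
Each point is 1 of 10313 genes with a mean of at least 5 CPM, placed by the log2 ratio of the PC mean to NC 1 (horizontal) and to NC 2 (vertical), each with 0.5 CPM added. The 65 red and 185 blue genes are those set apart, while a column of pancreatic genes such as Amy2a5 drops away against NC 2 and not against NC 1.

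S100a9 and S100a8 encode the subunits of calprotectin, a calcium-binding protein that fills the cytosol of neutrophils, and had the smallest p-values of all genes. S100a9 had 0.510 and 0.628 CPM in the PC libraries and 1144 and 1128 CPM in the NC libraries with a log2 fold change of -10.93 (SE 2.01, edgeR adjusted p = 0.19). S100a8 had 0.291 and 0.628 CPM in PC and 825 and 792 CPM in NC (log2 fold change -10.75, SE 2.01, edgeR adjusted p = 0.19). The NC libraries lay close to each other for both genes and the groups were far from overlapping, yet neither gene passed the adjusted threshold. The remaining 8 of the 10 genes with the smallest p had an edgeR adjusted p of 0.429. All 10 were lower in PC.

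Saa3, a serum amyloid A gene of macrophages and epithelium in the mouse, had 6.62 and 5.18 CPM in PC and 2551 and 3408 CPM in NC (log2 fold change -8.98, SE 2.01). Cxcl10, a chemokine that attracts activated T cells, had 1.16 and 0.628 CPM in PC and 318 and 224 CPM in NC (log2 fold change -8.22, SE 1.83), and its line overlaps Art3. Mptx1, a mucosal pentraxin of the mouse gut, stood in the opposite direction with 4248 and 8115 CPM in PC and 6.37 and 0.0954 CPM in NC (log2 fold change 10.89, SE 3.21, edgeR adjusted p = 1.0). Fxyd4, an ion transport regulator of colon and kidney, had 17.8 and 55.4 CPM in PC and no count in either NC library, and was at least 151-fold higher in PC against a floor of 3 counts per library (edgeR adjusted p = 0.481). With S100a9 and S100a8, these genes had the 4 widest gaps downward and the 2 widest upward among all genes of at least 5 CPM.

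The promoters of these 6 genes are shown as the sequences upstream of the genes that separate the groups most widely. Each runs from 250 bases before to 50 after the RefSeq start, on the strand of the gene, in build GRCm38.p6. Capitals mark matches on either strand to 4 motifs: an interferon response form (GAAA, any 2 bases, GAAA), TTCNNNGAA (a STAT form), TATAAA, and the NF-kB consensus. Among 32851 promoters of this length these occurred in 3.44%, 8.3%, 13.6% and 8.46%. The regions are chr3:90695672-90695971 (S100a9, minus strand), chr3:90668821-90669120 (S100a8, plus), chr7:46715627-46715926 (Saa3, minus), chr5:92348840-92349139 (Cxcl10, minus), chr1:174330268-174330567 (Mptx1, plus) and chr6:117937286-117937585 (Fxyd4, minus).
S100a9: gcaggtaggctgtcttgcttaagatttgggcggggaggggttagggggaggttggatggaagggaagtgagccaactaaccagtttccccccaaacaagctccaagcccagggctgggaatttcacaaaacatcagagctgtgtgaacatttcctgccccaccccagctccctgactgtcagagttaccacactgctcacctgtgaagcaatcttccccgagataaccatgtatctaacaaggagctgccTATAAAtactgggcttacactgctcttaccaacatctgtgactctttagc
S100a8: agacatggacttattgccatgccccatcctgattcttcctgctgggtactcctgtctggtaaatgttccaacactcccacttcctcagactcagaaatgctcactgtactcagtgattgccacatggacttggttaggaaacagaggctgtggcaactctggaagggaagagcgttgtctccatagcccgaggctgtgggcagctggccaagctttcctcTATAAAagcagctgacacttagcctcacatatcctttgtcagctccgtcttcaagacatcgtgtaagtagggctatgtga
Saa3: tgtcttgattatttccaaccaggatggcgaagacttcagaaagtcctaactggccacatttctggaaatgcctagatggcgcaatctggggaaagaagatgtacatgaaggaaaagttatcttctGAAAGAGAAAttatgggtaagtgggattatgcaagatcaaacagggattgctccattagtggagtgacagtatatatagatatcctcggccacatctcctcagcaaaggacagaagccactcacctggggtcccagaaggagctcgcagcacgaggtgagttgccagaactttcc
Cxcl10: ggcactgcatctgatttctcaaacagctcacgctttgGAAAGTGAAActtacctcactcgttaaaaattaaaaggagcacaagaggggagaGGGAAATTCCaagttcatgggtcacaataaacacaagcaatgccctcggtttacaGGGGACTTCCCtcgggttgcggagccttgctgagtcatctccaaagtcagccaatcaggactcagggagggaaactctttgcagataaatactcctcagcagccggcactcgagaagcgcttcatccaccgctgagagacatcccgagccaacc
Mptx1: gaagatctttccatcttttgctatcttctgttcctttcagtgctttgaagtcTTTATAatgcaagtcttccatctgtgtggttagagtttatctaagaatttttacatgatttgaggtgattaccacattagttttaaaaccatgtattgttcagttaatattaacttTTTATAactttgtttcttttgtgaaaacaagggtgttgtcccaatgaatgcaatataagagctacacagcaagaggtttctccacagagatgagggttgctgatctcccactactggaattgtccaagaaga
Fxyd4: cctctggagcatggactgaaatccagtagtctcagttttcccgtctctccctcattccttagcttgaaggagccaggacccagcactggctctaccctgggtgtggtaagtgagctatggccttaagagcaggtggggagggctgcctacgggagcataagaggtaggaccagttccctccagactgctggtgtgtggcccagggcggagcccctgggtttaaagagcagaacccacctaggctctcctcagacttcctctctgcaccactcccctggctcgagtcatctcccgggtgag
TATAAA began at the annotated start of S100a9 and 30 bases before that of S100a8. Saa3 held the interferon response form 125 bases before its start. Cxcl10 held it 213 bases before its start, and NF-kB matches beginning 159, 104 and 103 bases before it, the last 2 overlapping. Mptx1 held TATAAA on the opposite strand 198 and 82 bases before its start. No match was found in the Fxyd4 window, and TTCNNNGAA was in none of the 6.

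**Figure D2:**
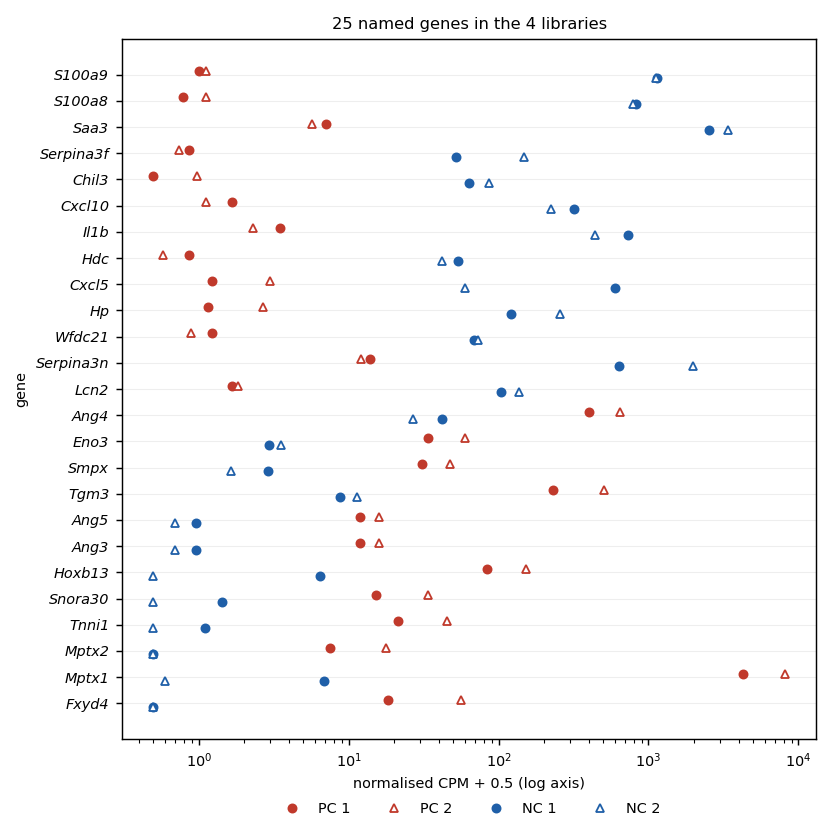
Normalised CPM with 0.5 added, on a log axis, of the 25 named genes, picked by smallest p or widest gap with gene-model placeholders left out. They are ordered by log2 fold change. Red symbols are the PC libraries, blue the NC libraries, circles library 1 and triangles library 2. The 13 genes at the top are lower in both PC libraries and the 12 below them higher, with Mptx1 at 4248 and 8115 CPM in PC.

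Neutrophil genes were low in both PC libraries. Of 27 listed genes 19 were tested, and all 19 had a negative log2 fold change (median -5.69, or -5.43 with genes at 0 placed at their bound). All 11 with at least 5 CPM were set apart lower, beside 1.79% lower over all such genes. Since most of the 11 reach 5 CPM through NC alone, these counts describe the list and carry no test. The median log2 ratio was -4.66 against NC 1 and -4.34 against NC 2, and the summed CPM of the list was 20.8 and 18.7 in PC and 2695 and 2375 in NC. Stfa2l1, a stefin of mouse neutrophils, had no count in PC and 13.5 and 21.5 CPM in NC, at least 77.1-fold lower in PC. Clec4e, the receptor for cord factor, was likewise at 0 in PC and at 28.9 and 11.2 CPM in NC. Retnlg, a resistin-like protein of granulocytes, had 7.42 and 6.36 CPM in PC and 323 and 202 CPM in NC (log2 fold change -5.25, SE 1.49). Each of these separated the groups. The neutrophil collagenase Mmp8 was at 0.0728 and 0.314 CPM in PC and 47.6 and 34.6 CPM in NC. Hdc, which makes histamine, was at 0.364 and 0.0785 CPM in PC and 53.4 and 41.4 CPM in NC. The formyl peptide receptor gene Fpr2 was at 1.82 and 0.785 CPM in PC and 59.7 and 35.5 CPM in NC. Mmp9, gelatinase B, did not follow them: it was at 2.47 and 2.51 CPM in PC and 8.76 and 0 CPM in NC, so that the PC values lay between the NC values. The chemokine receptor gene Cxcr2 was at 0.146 and 0.157 CPM in PC and 11.7 and 2.39 CPM in NC. In bulk tissue, fewer cells of a type and less RNA per cell cannot be told apart.

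Cytokine and chemokine genes were low in PC too, though less evenly so against NC 2. Of 34 listed genes 28 were tested (median -5.25, -4.85 at bound). Of 19 with at least 5 CPM, 13 were set apart lower and none higher, beside 1.79% lower over all such genes. Several of these, such as Cxcl2 and Tnf, also reach 5 CPM through NC alone. The median log2 ratio was -4.24 against NC 1 and -2.89 against NC 2. Il1b, the inflammasome-processed cytokine, was at 2.98 and 1.81 CPM in PC and 734 and 437 CPM in NC (log2 fold change -7.92, SE 1.73), with reads that may be shared with the overlapping Il1bos. Il11, which acts through gp130 on stroma and epithelium, was at 0.728 and 0.314 CPM in PC and 70.3 and 53.5 CPM in NC (log2 fold change -6.86, SE 1.69). Tnf was at 0.728 and 0 CPM in PC and 16.3 and 7.25 CPM in NC. Both NC libraries lay well above PC in these members. Other members were several-fold higher in NC 1 than in NC 2. The neutrophil chemokine Cxcl5 was at 0.728 and 2.51 CPM in PC and 594 and 59.0 CPM in NC. Cxcl2, of the same family, was at 0 and 0.0785 CPM in PC and 56.8 and 5.63 CPM in NC. Ccl2, which recruits monocytes, was at 1.60 and 2.75 CPM in PC and 231 and 1.34 CPM in NC. For Ccl2 the groups overlapped, because NC 2 lay below both PC libraries. Il6 was at 0.0728 and 0.0785 CPM in PC and 16.3 and 1.15 CPM in NC, and the groups did not overlap. Ccl8, a monocyte chemokine, was at 20.9 and 21.4 CPM in PC and 447 and 566 CPM in NC, with NC 2 the higher. The T cell cytokine Ifng had no count in PC and 11.1 and 3.91 CPM in NC, at least 33.0-fold lower in PC. Il17a had no count in PC and 1.99 and 2.39 CPM in NC, at least 9.64-fold lower in PC. Il18, which epithelium makes at rest, was at 248 and 363 CPM in PC and 387 and 368 CPM in NC, and the epithelial chemokine Ccl28 was at 25.3 and 33.5 CPM in PC and 22.0 and 2.67 CPM in NC. Of these epithelial members, Il18 was a little lower and Ccl28 higher in both PC libraries than in both NC libraries.

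Interferon-stimulated genes were also lower in PC, by less. All 38 listed genes were tested, 36 had a negative log2 fold change and the median was -2.37 (-2.55 against NC 1 and -1.84 against NC 2). Of 34 with at least 5 CPM, 12 were set apart lower and none higher, beside 1.79% lower over all such genes. Some of these, such as Gbp5, reach 5 CPM through NC alone, so the count carries no test. Gbp5, a guanylate-binding GTPase, was at 2.98 and 3.06 CPM in PC and 145 and 73.7 CPM in NC (log2 fold change -5.17, SE 1.52). Ifi47, an immunity-related GTPase of the mouse, was at 14.3 and 8.56 CPM in PC and 278 and 125 CPM in NC (log2 fold change -4.14, SE 1.40). Isg15, a ubiquitin-like modifier, was at 20.7 and 11.2 CPM in PC and 272 and 193 CPM in NC. The groups did not overlap in any of these. The GTPase gene Iigp1 was at 21.9 and 17.9 CPM in PC and 678 and 84.4 CPM in NC. Irgm2 was at 14.0 and 7.93 CPM in PC and 87.6 and 0 CPM in NC, so NC 2 had none. The transcription factor gene Irf1 was at 102 and 104 CPM in PC and 369 and 69.1 CPM in NC, so that NC 2 lay below both PC libraries. Irf8 and Psmb9 were the members with a positive value (log2 fold change 0.66 and 0.09).

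Genes of monocytes and macrophages followed, with 24 of 24 tested, 23 negative and a median of -2.29 (-2.41 against NC 1 and -1.83 against NC 2). Of 23 with at least 5 CPM, 9 were set apart lower, beside 1.79% over all such genes. Some of these, such as Chil3 and Fcgr4, reach 5 CPM through NC alone, so the count carries no test. Chil3, a chitinase-like protein of mouse myeloid cells, was at 0 and 0.471 CPM in PC and 63.1 and 86.1 CPM in NC. The Fc receptor genes separated the groups. Fcgr4 was at 4.73 and 2.20 CPM in PC and 81.1 and 71.4 CPM in NC (log2 fold change -4.45, SE 1.49). Fcgr1 was at 3.06 and 3.69 CPM in PC and 31.9 and 82.1 CPM in NC. Their shared signalling chain Fcer1g was at 23.1 and 22.9 CPM in PC and 242 and 324 CPM in NC. The integrin gene Itgam was at 4.59 and 5.26 CPM in PC and 43.2 and 85.6 CPM in NC. Some genes of resident macrophages differed less. Cx3cr1, the fractalkine receptor, was at 26.7 and 33.1 CPM in PC and 33.2 and 29.7 CPM in NC. Csf1r, the receptor for macrophage colony-stimulating factor, was at 33.6 and 38.4 CPM in PC and 48.2 and 98.9 CPM in NC. Lyz2, lysozyme of myeloid cells, was at 46.6 and 76.4 CPM in PC and 117 and 6.68 CPM in NC, so NC 1 and NC 2 lay on opposite sides of PC.

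Complement genes had a median of -2.13 (-2.07 against NC 1 and -2.01 against NC 2) over 16 tested. All 16 had at least 5 CPM, and 5 were set apart lower, beside 1.79% over all such genes. C3, the central component, was at 36.3 and 41.1 CPM in PC and 605 and 853 CPM in NC (log2 fold change -4.24, SE 1.51). The C1q chain gene C1qa was at 37.9 and 58.4 CPM in PC and 236 and 1333 CPM in NC, C1qb at 50.3 and 69.8 CPM in PC and 341 and 908 CPM in NC, and C1qc at 47.1 and 59.7 CPM in PC and 85.4 and 52.0 CPM in NC. The chains of 1 protein thus gave unequal values, with C1qc overlapping between the groups. Antigen presentation showed smaller values. MHC class II genes had a median of -0.99 (-1.28 against NC 1 and -1.07 against NC 2) over 9 tested and none set apart. The invariant chain gene Cd74 was at 63.3 and 88.8 CPM in PC and 281 and 1486 CPM in NC. H2-Aa was at 369 and 416 CPM in PC and 1022 and 538 CPM in NC. Class I genes had a median of -0.90 (-1.56 against NC 1 and -0.48 against NC 2) over 12 tested, with the peptide transporter Tap1 (8.74 and 5.18 CPM in PC and 99.5 and 144 CPM in NC) and the immunoproteasome subunit Psmb8 (39.3 and 44.5 CPM in PC and 256 and 313 CPM in NC) set apart lower. Of the 12 class I genes 9 had at least 5 CPM. Beta-2 microglobulin, B2m, was at 1495 and 1721 CPM in PC and 5382 and 2440.1 CPM in NC.

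Lymphocyte genes were thinly covered. Of 22 T and NK cell genes 16 were tested, the median was -1.37 (-1.25 against NC 1 and -0.28 against NC 2), and Gzma, a granzyme, was set apart lower at 0.291 and 0.314 CPM in PC and 12.1 and 17.5 CPM in NC. Of the 16, 2 had at least 5 CPM. Without NC 1 the median was 1.54, the opposite sign. Foxp3, the factor of regulatory T cells, was at 4.73 and 5.26 CPM in PC and 6.70 and 1.72 CPM in NC. Genes of B and plasma cells had a median of 0.34 (0.04 against NC 1 and 0.82 against NC 2) over 17 tested with none set apart. It was -0.47 without PC 2 and 1.03 without NC 1, so its sign depended on 1 library. The joining chain gene Jchain was at 706 and 679.6 CPM in PC and 1100.4 and 618 CPM in NC, so that PC lay between the NC libraries.

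Signalling genes downstream of these cytokines gave intermediate values. NF-kB and TNF feedback genes had a median of -1.28 over 25 tested. Of 22 with at least 5 CPM, 4 were set apart lower, beside 1.79% over all such genes. The median was -1.42 against NC 1 and -0.11 against NC 2. Bcl3, a nuclear inhibitor of NF-kB family proteins, was at 11.4 and 14.0 CPM in PC and 77.3 and 93.0 CPM in NC. The inhibitor gene Nfkbia was at 219 and 234 CPM in PC and 390.0 and 129 CPM in NC and overlapped. Enzymes of oxidant, itaconate and arginine metabolism had a median of -1.70 (-1.74 against NC 1 and -1.36 against NC 2), with 16 tested, all negative. Of 14 with at least 5 CPM, 4 were set apart lower, beside the same share. Irg1 and Ido1 among them reach 5 CPM through NC alone. Irg1, which makes itaconate in macrophages, had no count in PC and 53.1 and 20.7 CPM in NC, at least 163-fold lower in PC. Ido1, which degrades tryptophan, was at 1.02 and 0.471 CPM in PC and 25.6 and 134 CPM in NC (log2 fold change -6.72, SE 1.82). Cybb, the catalytic subunit of the phagocyte oxidase, was at 15.7 and 16.7 CPM in PC and 104 and 199 CPM in NC, while the epithelial oxidase Nox1 was at 41.3 and 30.5 CPM in PC and 53.4 and 103 CPM in NC.

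**Figure D3:**
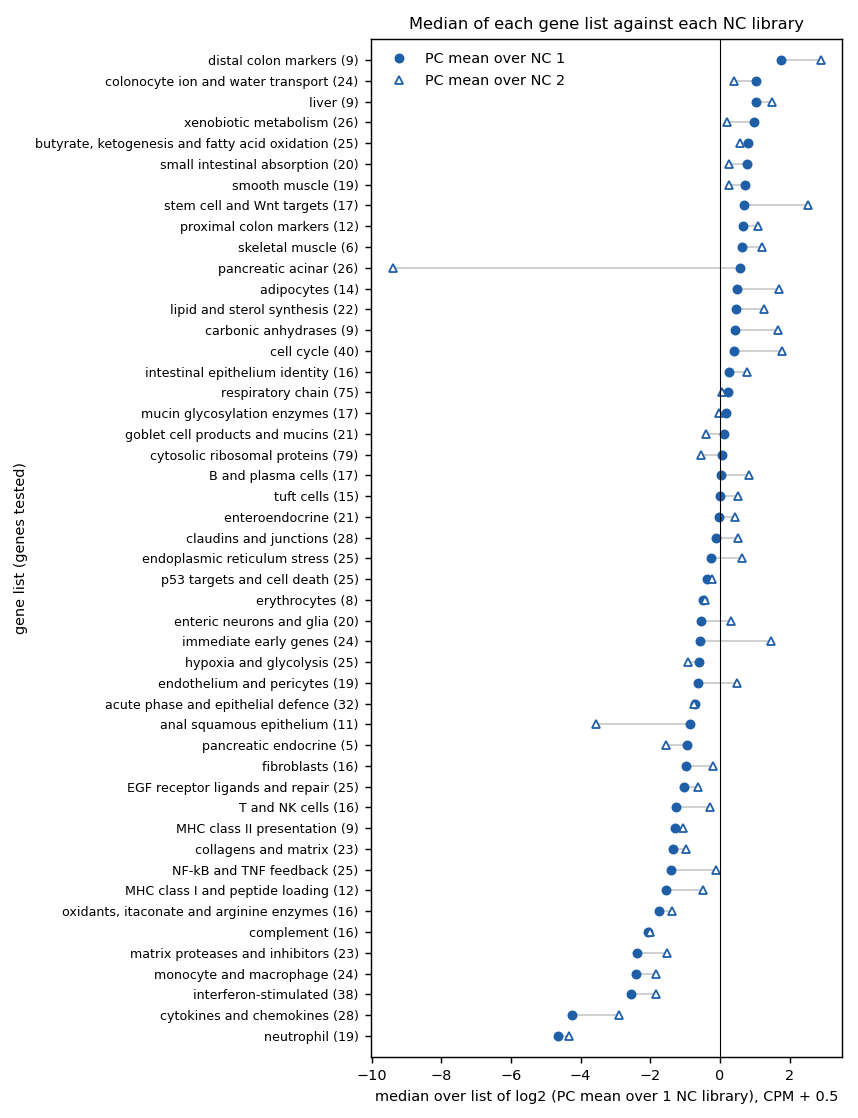
For each of 48 gene lists, the median log2 ratio of the PC mean to NC 1 (filled circle) and to NC 2 (open triangle), each with 0.5 CPM added, with the number of genes tested in brackets. Neutrophil genes lie at -4.66 and -4.34, and pancreatic acinar genes at 0.57 and -9.39. The median of all genes tested, not drawn, is 0.02 against NC 1 and 0.42 against NC 2.

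Among the 12 named genes higher in PC were muscle-type and epithelial genes beside Mptx1 and Fxyd4. Tgm3, a transglutaminase that cross-links epithelial proteins, was at 230.4 and 506 CPM in PC and 8.30 and 10.9 CPM in NC (log2 fold change 5.26, SE 1.86). Tnni1, slow skeletal troponin I, was at 20.7 and 44.8 CPM in PC and 0.597 and 0 CPM in NC (log2 fold change 6.67, SE 2.42). Smpx, a small muscular protein, was at 30.6 and 46.8 CPM in PC and 2.39 and 1.15 CPM in NC. The muscle enolase gene Eno3 was at 33.2 and 59.1 CPM in PC and 2.46 and 3.05 CPM in NC. The groups did not overlap in any of them, and the edgeR adjusted p was 1.0 in each. Snora30, a small nucleolar RNA whose line lies inside Srcap, was at 14.7 and 33.1 CPM in PC and 0.929 and 0 CPM in NC.

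Acute phase and epithelial defence genes divided into a lower and a higher set. Of 34 listed genes 32 were tested (median -1.47, -0.72 against NC 1 and -0.74 against NC 2), 9 were set apart lower and 7 higher, beside 1.79% and 0.63% over all genes of at least 5 CPM. Lower in PC beside Saa3 was Lcn2, which binds bacterial siderophores, at 1.16 and 1.34 CPM in PC and 103 and 137 CPM in NC (log2 fold change -6.57, SE 1.53). Hp, which binds free haemoglobin, was at 0.655 and 2.20 CPM in PC and 121 and 255 CPM in NC (log2 fold change -7.03, SE 1.62). Wfdc21, a whey acidic protein family member, was at 0.728 and 0.393 CPM in PC and 68.5 and 72.5 CPM in NC (log2 fold change -6.94, SE 1.61). In all 3 the groups were well separated. The bactericidal lectins gave a different picture. Reg3b was at 714 and 2.75 CPM in PC and 6657 and 5490.0 CPM in NC. Reg3g was at 224 and 1.57 CPM in PC and 3109 and 1887 CPM in NC. Both were set apart, yet PC 1 lay far above PC 2, and of the 26 genes that differed by 4-fold or more between the PC libraries these differed most. Saa1, a paralogue of Saa3, was at 833 and 1526 CPM in PC and 1888 and 3986 CPM in NC. Reg1, Reg2 and Reg3a, which acinar cells of the pancreas also make, were high only in NC 2 of the 4 libraries: Reg1 was at 0.437 and 0.785 CPM in PC and 0 and 1259 CPM in NC.

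Higher in PC stood a group of secreted proteins led by Mptx1. Its paralogue Mptx2 was at 7.06 and 17.4 CPM in PC with no count in NC, at least 50.3-fold higher in PC. Ang4, an antimicrobial ribonuclease of the mouse gut, was at 399 and 648 CPM in PC and 41.6 and 26.2 CPM in NC (log2 fold change 3.95, SE 1.52). Ang5 and Ang3 are listed at the same position with identical counts, 11.5 and 15.4 CPM in PC and 0.465 and 0.191 CPM in NC, so their reads cannot be told apart. Reg4, a lectin of enteroendocrine and goblet cells, was at 365 and 1100.1 CPM in PC and 68.3 and 51.1 CPM in NC. Retnla, a resistin-like molecule known from type 2 responses, was at 39.9 and 52.5 CPM in PC and 5.84 and 5.63 CPM in NC. Wfdc2 was at 218 and 306 CPM in PC and 40.8 and 35.3 CPM in NC. Each of these was set apart, and the PC libraries differed most from each other for Reg4. S100g, a calcium-binding protein of absorptive epithelium, was also set apart and less even, at 9.10 and 75.2 CPM in PC and 1.66 and 0 CPM in NC. Retnlb, the goblet cell relative of Retnla, did not share their pattern: it was at 959.7 and 131 CPM in PC and 1470.0 and 644 CPM in NC, with PC 2 the lowest of the 4.

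**Figure D4:**
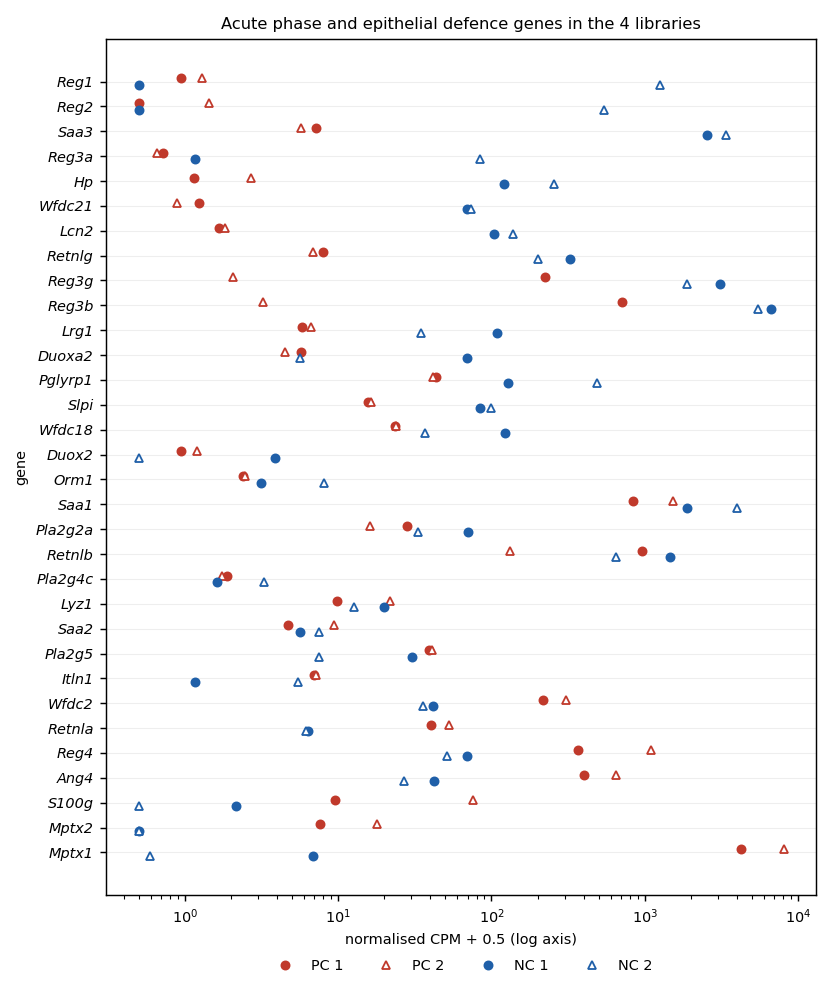
Normalised CPM with 0.5 added, on a log axis, of the 32 tested acute phase and epithelial defence genes, ordered by log2 fold change; red symbols are PC, blue NC, circles library 1 and triangles library 2. Saa3, Hp, Wfdc21 and Lcn2 are low in both PC libraries, Reg3g and Reg3b differ between PC 1 and PC 2, and Wfdc2, Retnla, Reg4, Ang4, S100g, Mptx2 and Mptx1 are higher in both.

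Proteases and inhibitors of the matrix were lower in PC, with 23 of 25 listed genes tested, 22 negative and a median of -2.14 (-2.38 against NC 1 and -1.53 against NC 2). Of 17 with at least 5 CPM, 9 were set apart lower, beside 1.79% over all such genes. Several of these, such as Mmp13 and Timp1, reach 5 CPM through NC alone, so the count carries no test. Mmp13, an interstitial collagenase, was at 3.13 and 2.51 CPM in PC and 215 and 63.0 CPM in NC (log2 fold change -5.61, SE 1.51). Stromelysin 1, Mmp3, was at 1.82 and 2.20 CPM in PC and 128 and 47.8 CPM in NC. Mmp10, stromelysin 2, was at 1.46 and 1.73 CPM in PC and 179 and 8.68 CPM in NC. The groups separated, with NC 1 above NC 2 in all 3. The serpins ran the other way between the NC libraries. Serpina3n was at 13.4 and 11.5 CPM in PC and 633 and 1987 CPM in NC (log2 fold change -6.71, SE 1.77). Serpina3f was at 0.364 and 0.236 CPM in PC and 51.6 and 147 CPM in NC, and overlaps Serpina3g, so the 2 may share reads. Timp1, an inhibitor of metalloproteases, was at 2.18 and 3.06 CPM in PC and 80.9 and 38.4 CPM in NC, while Timp2 was at 149 and 189 CPM in PC and 160.3 and 72.5 CPM in NC and Timp3 at 118 and 148 CPM in PC and 208 and 194 CPM in NC. Of the 3 inhibitors Timp1 alone was set apart.

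Collagen and matrix genes had a median of -1.19 (-1.36 against NC 1 and -0.97 against NC 2) over 23 tested. All 23 had at least 5 CPM, and 3 were set apart lower, beside 1.79% over all such genes. Lox, which cross-links collagen, was at 1.53 and 2.43 CPM in PC and 48.4 and 80.0 CPM in NC (log2 fold change -5.01, SE 1.56). Sparc, a matricellular protein, was at 212 and 275 CPM in PC and 1289 and 2736 CPM in NC. The fibrillar collagen gene Col1a1 was at 80.7 and 116 CPM in PC and 362 and 277 CPM in NC, but Col1a2, its partner chain, was at 304 and 409 CPM in PC and 355 and 50.4 CPM in NC. The Col1a2 values therefore overlapped through NC 1 and were lowest in NC 2. Fibroblast genes had a median of -1.24 (-0.96 against NC 1 and -0.21 against NC 2). Of 10 with at least 5 CPM, 1 was set apart lower, Pdpn, podoplanin, at 18.9 and 25.3 CPM in PC and 153 and 136 CPM in NC. Without NC 1 the fibroblast median was -0.13 and without PC 1 -0.63. Endothelium and pericyte genes had a median of -0.35 (-0.62 against NC 1 and 0.48 against NC 2), which was 0.82 without NC 1. Of these 19 genes 12 had at least 5 CPM and 1 was set apart, the leukocyte adhesion receptor Vcam1, at 14.6 and 17.2 CPM in PC and 133 and 124 CPM in NC. Pecam1, a constitutive endothelial gene, was at 11.4 and 12.7 CPM in PC and 31.3 and 13.7 CPM in NC. Smooth muscle genes had a median of 0.59 (0.72 against NC 1 and 0.25 against NC 2) with none set apart, and their summed CPM was 7559.6 and 8073 in PC and 4974 and 9118 in NC. Myh11, smooth muscle myosin, was at 624 and 674 CPM in PC and 249 and 695 CPM in NC. Enteric neuron and glia genes had a median of -0.28 (-0.54 against NC 1 and 0.33 against NC 2) over 20 tested, and without NC 1 the median was 0.37, the opposite sign. Of 14 with at least 5 CPM, 1 was set apart lower, the substance P precursor Tac1, at 37.6 and 44.1 CPM in PC and 188 and 211 CPM in NC.

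Repair genes had a median of -1.32 (-1.04 against NC 1 and -0.62 against NC 2) and hypoxia genes one of -0.78 (-0.60 against NC 1 and -0.92 against NC 2). Of 18 repair and 24 hypoxia genes with at least 5 CPM, 3 of each list were set apart lower, beside 1.79% over all such genes. Ereg, a ligand of the epidermal growth factor receptor, was at 3.42 and 4.01 CPM in PC and 56.7 and 131 CPM in NC (log2 fold change -4.65, SE 1.41). Igf1 was at 37.1 and 38.9 CPM in PC and 235 and 265 CPM in NC. Ly6a, a marker of regenerating colonic epithelium in the mouse, was at 348 and 312 CPM in PC and 1738 and 1812 CPM in NC. Areg, another ligand of that receptor, was at 15.7 and 13.2 CPM in PC and 26.8 and 11.2 CPM in NC, and overlapped. Hmox1, which degrades haem, was at 0.655 and 1.34 CPM in PC and 16.3 and 70.6 CPM in NC. The lactate transporter gene Slc16a3 was at 2.77 and 2.67 CPM in PC and 29.8 and 48.6 CPM in NC, and the vasodilator gene Adm at 7.28 and 4.08 CPM in PC and 58.1 and 60.1 CPM in NC. Vegfa and Car9, which are also hypoxia targets, were not lower in PC: Vegfa was at 15.2 and 18.9 CPM in PC and 12.9 and 9.54 CPM in NC, and Car9 at 50.1 and 28.7 CPM in PC and 18.5 and 1.05 CPM in NC.

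Genes of colonocyte function were mostly a little higher in PC, and few were set apart. Ion and water transport genes had a median of 0.57 (1.04 against NC 1 and 0.41 against NC 2), with 24 of 27 tested and 17 positive. The median of all genes tested was 0.02 against NC 1 and 0.42 against NC 2. Of 22 transport genes with at least 5 CPM, Fxyd4 was set apart higher and Clca4b lower. Clca4b, a chloride channel regulator family member of the mouse, was at 3.93 and 1.81 CPM in PC and 562 and 51.2 CPM in NC (log2 fold change -6.73, SE 1.73). The water channel gene Aqp8 was at 601 and 622 CPM in PC and 77.6 and 417 CPM in NC. The anion exchanger gene Slc26a3 was at 800.4 and 809 CPM in PC and 248 and 1352 CPM in NC, which lay on either side of PC. Guca2a, guanylin, was at 1726 and 1398 CPM in PC and 479 and 498 CPM in NC. The proton pump gene Atp12a was at 49.9 and 102 CPM in PC and 4.25 and 12.5 CPM in NC.

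Carbonic anhydrase genes had a median of 1.59 (0.44 against NC 1 and 1.66 against NC 2) over 9 tested. It was 0.69 without NC 2 and 0.81 without PC 2. Car1, abundant in surface colonocytes, was at 3783 and 2667 CPM in PC and 901 and 893 CPM in NC (log2 fold change 1.85, SE 1.75). Car4 was at 541 and 656 CPM in PC and 602 and 265 CPM in NC and overlapped. Metabolic lists had positive medians and no gene set apart. The median was 0.66 (0.80 against NC 1 and 0.58 against NC 2) for butyrate use, ketogenesis and fatty acid oxidation. It was 0.61 (0.46 against NC 1 and 1.27 against NC 2) for lipid and sterol synthesis, and 0.61 (0.99 against NC 1 and 0.21 against NC 2) for xenobiotic metabolism. Against NC 2 the xenobiotic median lay below that of all genes tested, 0.42. Slc16a1, the butyrate and lactate transporter, was at 143 and 147 CPM in PC and 47.3 and 9.26 CPM in NC. Fasn, fatty acid synthase, was at 61.7 and 57.6 CPM in PC and 14.2 and 21.0 CPM in NC. The glutathione transferase gene Gstm1 was at 177 and 164 CPM in PC and 46.5 and 43.8 CPM in NC. Both PC libraries exceeded both NC libraries for these 3 genes.

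The lists for both ends of the colon had positive medians. Distal colon markers had a median of 5.30, or 2.68 at bound (1.77 against NC 1 and 2.90 against NC 2), over 9 of 14 listed genes. Of the 9, 6 had no count in NC 2 and 2 had none in NC 1, so the median rests largely on genes near the floor. Only 2 had at least 5 CPM, and both were set apart higher. Hoxb13, a posterior homeobox gene, was at 83.1 and 152 CPM in PC and 5.91 and 0 CPM in NC (log2 fold change 5.30, SE 2.10). Hoxd13 was at 8.44 and 42.4 CPM in PC and 1.13 and 0 CPM in NC. PC 2 lay above PC 1 in both, and NC 2 had no count. Hoxd10 went its own way, at 2.69 and 6.21 CPM in PC and 0.465 and 10.1 CPM in NC. Proximal colon markers had a median of 0.89 (0.66 against NC 1 and 1.10 against NC 2) over 12 tested, 10 of them positive. Those set apart were Mptx1 and Ang4, which are counted above among the defence genes. Cyp2c55 was at 583 and 287 CPM in PC and 108 and 457 CPM in NC, and the water channel gene Aqp4 at 309 and 199 CPM in PC and 405 and 212 CPM in NC. Small intestinal absorption genes had a median of 0.39 (0.76 against NC 1 and 0.27 against NC 2), and the bile acid-binding protein gene Fabp6 was at 7.28 and 10.5 CPM in PC and 3.65 and 15.2 CPM in NC. How much the gut region sampled differed between libraries was not tested.

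Cell cycle genes were positive in 37 of 40, with a median of 0.96 (0.40 against NC 1 and 1.79 against NC 2) and 1 set apart of the 36 with at least 5 CPM. Their summed CPM was 2343 and 1352 in PC and 1349.6 and 766 in NC, so PC 2 was level with NC 1. Cdc20, an activator of the anaphase-promoting complex, was the gene set apart, at 25.4 and 13.4 CPM in PC and 2.59 and 0.382 CPM in NC (log2 fold change 3.69, SE 2.26). Cdk1, the mitotic kinase, was at 159.7 and 94.9 CPM in PC and 29.6 and 2.77 CPM in NC. Mki67, a marker of cycling cells, was at 102 and 52.0 CPM in PC and 41.6 and 58.4 CPM in NC, with PC 2 below NC 2. Stem cell and Wnt target genes had a median of 0.40 (0.70 against NC 1 and 2.53 against NC 2) over 17 tested and none set apart, and without NC 1 it was 3.52. Lgr5, the crypt base stem cell receptor, was at 3.35 and 5.03 CPM in PC and 0.597 and 0.0954 CPM in NC. Prom1, which is also a progenitor marker, was at 175 and 128 CPM in PC and 552 and 1391 CPM in NC.

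Secretory lineages gave medians near 0. Their signs about 0 differed between the NC libraries, while the median of all genes tested was 0.02 against NC 1 and 0.42 against NC 2. Goblet cell products had a median of -0.44 (0.11 against NC 1 and -0.40 against NC 2) and mucin glycosylation enzymes -0.13 (0.19 against NC 1 and -0.03 against NC 2), with none set apart. Muc2, the main secreted mucin, was at 2942 and 2041 CPM in PC and 2349 and 1388 CPM in NC. Clca1, secreted with it, was at 2189 and 4752 CPM in PC and 2073 and 4170.2 CPM in NC. Zg16, a mucus lectin, was at 3469 and 4982 CPM in PC and 4539.9 and 9795 CPM in NC. All 3 overlapped between the groups. Enteroendocrine genes had a median of -0.12 (-0.03 against NC 1 and 0.43 against NC 2) and tuft cell genes -0.13 (-0.01 against NC 1 and 0.52 against NC 2). The hormone gene Insl5 was at 301 and 556 CPM in PC and 291 and 61.8 CPM in NC, and Pyy at 96.3 and 128 CPM in PC and 115 and 64.1 CPM in NC. The tuft cell kinase gene Dclk1 was at 7.28 and 10.4 CPM in PC and 17.5 and 27.9 CPM in NC.

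Junction, stress and housekeeping lists also had medians near 0 and no gene set apart. The median was 0.23 (-0.12 against NC 1 and 0.53 against NC 2) for claudins and junctions, and -0.01 (-0.26 against NC 1 and 0.63 against NC 2) for endoplasmic reticulum stress. It was 0.11 (0.24 against NC 1 and 0.05 against NC 2) for 75 respiratory chain genes, and -0.32 (0.07 against NC 1 and -0.54 against NC 2) for 79 cytosolic ribosomal proteins. Except for the respiratory chain, the NC libraries gave opposite signs about 0. The median of all genes tested was 0.02 against NC 1 and 0.42 against NC 2, near the value of claudins and junctions against NC 2. Cldn7, a basolateral claudin, was at 91.9 and 96.9 CPM in PC and 199 and 502 CPM in NC. Cdh1, E-cadherin, was at 631 and 576 CPM in PC and 937 and 454 CPM in NC. Hspa5, the main chaperone of the endoplasmic reticulum, was at 720.0 and 671 CPM in PC and 942 and 618 CPM in NC. The housekeeping lists were uneven in NC 2. The summed CPM of ribosomal protein genes was 61945 and 83296 in PC and 67856 and 146872 in NC. Rps20 was at 1812 and 2471 CPM in PC and 3970.3 and 19140.0 CPM in NC. Sdhd, a membrane anchor of succinate dehydrogenase, was at 282 and 288 CPM in PC and 171 and 0.191 CPM in NC. Cell death genes had a median of -0.56 (-0.38 against NC 1 and -0.22 against NC 2). Of 23 with at least 5 CPM, 1 was set apart lower, the necroptosis kinase Ripk3, at 7.13 and 4.16 CPM in PC and 34.7 and 57.4 CPM in NC. Immediate early genes had a median of -0.36 (-0.58 against NC 1 and 1.47 against NC 2). Of 18 with at least 5 CPM, Ier3 was set apart lower, at 27.3 and 23.4 CPM in PC and 129 and 268 CPM in NC. The NC libraries gave opposite signs for that list, and without NC 1 its median was 1.80.

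Markers of other tissues were read for the whole list. Of 28 pancreatic acinar genes 26 were tested, their median was -10.15 (-9.92 at bound, 0.57 against NC 1 and -9.39 against NC 2), and none was set apart, since NC 1 was low too. Their summed CPM was 839.5 and 1646 in PC and 203 and 113810.0 in NC. Amy2a5, an amylase gene with near-identical copies, was at 1.38 and 15.9 CPM in PC and 0.730 and 51347 CPM in NC. Ctrb1, chymotrypsinogen, was at 0.146 and 4.48 CPM in PC and 0.0664 and 8028 CPM in NC. In PC most of the sum came from Sycn, syncollin, at 653 and 1261 CPM, against 95.1 and 2153 CPM in NC. Without NC 2 the median of the list was 1.38. Of the 26 genes tested, 14 had no count in PC 1, 5 in PC 2, 9 in NC 1 and none in NC 2. Pancreatic endocrine genes had a median of -1.30 (-0.96 against NC 1 and -1.54 against NC 2) over 5 tested. Insulin, Ins2, had no count in PC or NC 1 and 6.01 CPM in NC 2. Squamous epithelium genes had a median of -4.10 (-0.86 against NC 1 and -3.55 against NC 2) over 11 tested. Of 9 with at least 5 CPM, Sprr1a was set apart lower at 6.26 and 0.943 CPM in PC and 44.7 and 47.6 CPM in NC. Without NC 2 the median of the list was -0.87. The keratin gene Krt5 was high in NC 2 only, at 0.582 and 0.314 CPM in PC and 1.26 and 31.3 CPM in NC. Adipocyte genes had a median of 1.26 (0.50 against NC 1 and 1.71 against NC 2), with summed CPM of 649 and 709 in PC and 493 and 158 in NC, and Fabp4 at 182 and 214 CPM in PC and 135 and 11.2 CPM in NC. Liver genes had a median of 2.01 (1.73 at bound, 1.02 against NC 1 and 1.51 against NC 2) and summed to 74.5 and 126 CPM in PC and 15.8 and 39.5 CPM in NC, led by the transthyretin gene Ttr at 51.1 and 108 CPM in PC and 8.17 and 31.5 CPM in NC. Of 9 liver genes tested, 2 had at least 5 CPM and 5 had no count in NC 2. Skeletal muscle genes had a median of 0.96 (0.95 at bound, 0.65 against NC 1 and 1.22 against NC 2) and summed to 14.1 and 17.6 CPM in PC and 12.9 and 10.1 CPM in NC. Haemoglobin and other erythrocyte genes had a median of -0.50 (-0.50 against NC 1 and -0.42 against NC 2) and summed to 1143 and 914 CPM in PC and 1623 and 2171 CPM in NC. The part of these tissues in the other results was not tested.

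The same DSS contrast exists with exosome pretreatment, in ExDSS and Ex. The difference between the contrasts, an interaction term in the same edgeR fit, passed an adjusted p under 0.05 for 42 of 14567 genes (0.288%). Among them were 13 of the 25 named genes, the 13 that were lower in PC. The named genes were picked by their PC against NC difference, which is part of this interaction. Their number among the calls therefore carries no test. S100a9 was at 0.510 and 0.628 CPM in PC, 1144 and 1128 CPM in NC, 1427 and 1033 CPM in ExDSS, and 3.17 and 5.96 CPM in Ex (difference of log2 fold changes -19.07, edgeR adjusted p = 0.00415). By label, the 13 genes were low in PC and Ex and high in NC and ExDSS. The interaction calls depend on single libraries: 0 were left without NC 1 or without NC 2, and 1 without PC 1. Ex 2 held 1163147 counts in all, 53.5% of them from Rn45s. In Ex 2 a floor of 3 counts is 4.47 CPM, and S100a8, Serpina3f, Chil3 and Hdc had no count there. In ExDSS 1, pancreatic acinar genes held 21.7% of counts.

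**Figure D5:**
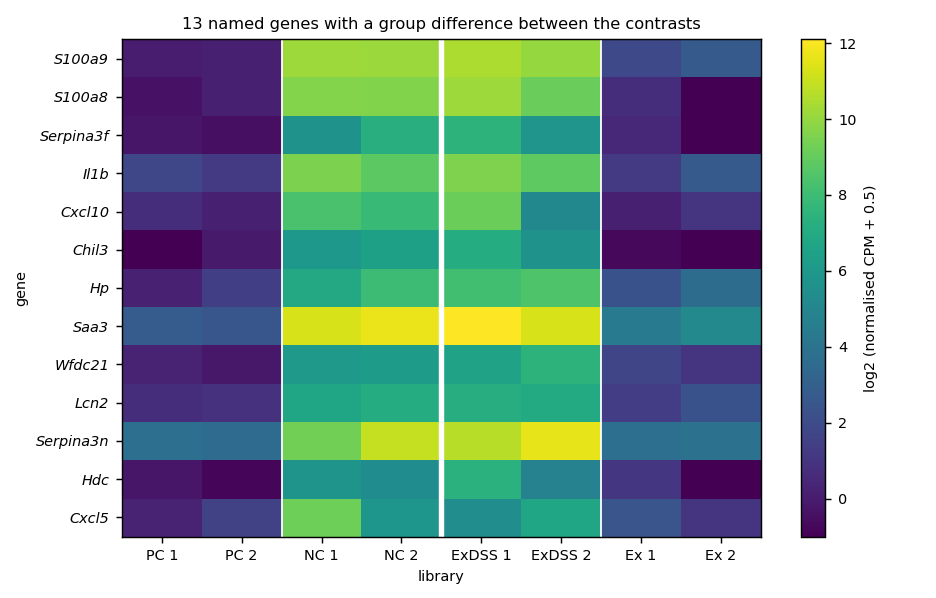
Log2 of normalised CPM plus 0.5 for the 13 named genes whose PC against NC difference departed from the ExDSS against Ex difference, in all 8 libraries. The genes are bright in NC and ExDSS and dark in PC and Ex, for example S100a9 at 0.510 CPM in PC 1 and 1427 CPM in ExDSS 1.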

How the data were processed

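Intestinal RNA of 2 PC, 2 NC, 2 ExDSS and 2 Ex libraries was extracted with Trizol and made into libraries with a QuantSeq kit, which reads the 3′ ends of messenger RNA, per the labels' protocols. The submitters' processing notes name Bowtie2, bedtools, edgeR and mm9, without versions or order. Of the gene coordinates in the deposited table, 21906 of 21979 with a RefSeq match overlapped that gene in GRCm38.p6 (99.67%), the build used for coordinates here. The deposited values are whole-number counts per gene, not normalised by the authors. Their table holds 23282 lines with 23236 names, of which 4764 had no count and 27 were date-like. The labels do not state if counting used strand, and overlapping genes may share reads.

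Counts were filtered with filterByExpr, which left 14567 genes, scaled with TMM factors and fitted in edgeR 4.0.16 with 1 coefficient per group over all 8 libraries. The robust quasi-likelihood test with Benjamini-Hochberg adjustment compared PC with NC, and an interaction compared this with ExDSS against Ex. The standard error (SE) of a log2 fold change is its size over the square root of F. Named genes were the 10 with the smallest p, and the 12 in each direction with the widest gap between the nearest PC and NC libraries. Both rules took genes with a mean of at least 5 CPM. Gene-model placeholders (Gm, Rik and LOC names), date-like names and antigen receptor segments were left out, some of which had wider gaps than named genes. Alternatives used DESeq2 1.42.0, limma 3.58.1 (voom), other scalings, filters and samples, in R 4.3.3. Of these fits, only the main edgeR fit of PC against NC was tried on simulated data. The simulated spread between libraries was smaller than in these data (common dispersion 1.17). Floors of 3 counts per library and the 95% exact binomial interval of the acinar share in NC 2 (9.67% to 9.71%) cover counting error only, since reads without molecular identifiers are not independent molecules. The labels do not say that replicate numbers pair libraries, so they were not taken as pairs. Same-numbered libraries deviated from their group means with r = 0.0933 over genes, which with 2 libraries a group cannot settle pairing. Members and gene lists were chosen with earlier results of these data known, and Zg16 was removed from the acinar list after its values were seen. Promoters came from RefSeq, GRCm38.p6, and matched all 6 genes.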

Additional observations from a re-analysis of the deposited data

Results flagged for a closer look

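The contrast of PC with NC differed from that of ExDSS with Ex in 13 of the 25 named genes, by the interaction term of the edgeR fit. The named genes were picked by the first contrast, which the interaction contains, so this number is a description only. The difference of the log2 fold changes was -19.07 for S100a9 and -20.75 for S100a8, both with an edgeR adjusted p of 0.00415. It was -15.66 for Serpina3f, -15.38 for Il1b and -16.68 for Cxcl10, with an edgeR adjusted p of 0.0092. The macrophage gene Chil3 had -18.10 (edgeR adjusted p = 0.0114). The acute phase and defence genes had -15.95 for Saa3, -12.40 for Hp, -12.77 for Wfdc21 and -12.02 for Lcn2, and the protease inhibitor Serpina3n had -14.10, all with an edgeR adjusted p of 0.0151. Hdc had -14.02 (edgeR adjusted p = 0.0200) and the neutrophil chemokine Cxcl5 -12.00 (edgeR adjusted p = 0.0284). S100a8, Serpina3f, Chil3 and Hdc had no count in Ex 2, and the sizes of these differences were not bounded. Each of the 13 was lower in both PC libraries than in both NC libraries and higher in both ExDSS libraries than in both Ex libraries. Saa3 was at 4380.0 and 2549 CPM in ExDSS, against 19.6 and 35.8 CPM in Ex. Il1b was at 764 and 463 CPM in ExDSS, against 1.84 and 5.96 CPM in Ex. Without NC 1 or without NC 2 the test called 0 genes, and without PC 1 it called 1.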

How the results depend on the processing

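No gene passed edgeR's adjusted threshold for PC against NC, but other choices called some: 2 higher and 43 lower with no filter on low counts, 6 higher and 77 lower with DESeq2, and 0 higher and 2 lower with limma-voom. Leaving out 1 library gave 0 higher and 0 to 4 lower, with 3 lower without Ex 1 and 4 without Ex 2. All other settings called 0. With PC and NC libraries alone, 1236 genes had an unadjusted p under 0.05, against 363 over all 8 libraries. Genes set apart numbered 81 to 1658 higher and 231 to 1119 lower when 1 library was left out. Leaving a library out makes the rule easier to meet. The extremes of 1658 and 1119 came without NC 1, and without PC 1 there were 107 higher. A 2-fold limit gave 484 higher and 540 lower, an 8-fold limit 15 and 82, a minimum mean of 20 CPM 31 and 112, and one of 1 CPM 98 higher. The interaction counts were 1616 with DESeq2, 161 with the replicate block and 67 with RLE size factors, and ranged between 0 and 1663 when 1 library was left out, with 1663 without Ex 1, 23 and 14 without ExDSS 2 and ExDSS 1, and 7 without Ex 2. Replicate numbers are shared between groups but nothing says that they pair libraries. With that replicate block, PC against NC had 0 calls and 284 genes at an unadjusted p under 0.05. Of 475 values of named genes, 438 stayed on the same side of the threshold, 37 passed it and 0 reversed. Of 719 list medians 555 moved by less than the spread between libraries, 161 moved further, and 3 that were at least 1 in size reached or crossed 0. When 1 library was left out, these 3 ranged between -1.70 and 1.54 for T and NK cells and -1.41 and 0 for pancreatic endocrine genes, the higher without NC 1, and between -12.37 and 1.38 for pancreatic acinar genes, the higher without NC 2. Counting small medians too, 44 of the 719 had the opposite sign, in 13 of 48 lists. Most often this was in enteroendocrine (9), endoplasmic reticulum stress (8) and tuft cell genes (6). The median ratios against NC 1 and NC 2 had opposite signs in 11 lists. These signs are taken about 0, while all genes tested had a median of 0.02 against NC 1 and 0.42 against NC 2. The cause was not tested. Scaling by total counts moved the median of all genes to 0.29, against 0.10. Depth limits genes under 3 counts per library, between 0.199 and 0.286 CPM in the PC and NC libraries and 4.47 CPM in Ex 2.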

Other observations

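Genes outside the lists were also set apart, 53 higher and 98 lower, and those named here were chosen after their values were seen. Among those lower in PC were 3 genes known from eosinophils or mast cells, for which no list was counted. Siglecf, a lectin of eosinophils, was at 1.75 and 0.943 CPM in PC and 9.36 and 8.49 CPM in NC. Ccr3, the eotaxin receptor, was at 1.60 and 1.18 CPM in PC and 21.4 and 13.7 CPM in NC. Mcpt2, a mucosal mast cell protease of the mouse, was at 0.874 and 1.34 CPM in PC and 9.16 and 28.1 CPM in NC. The groups did not overlap in any of the 3. Ifitm3, an interferon-induced membrane protein that restricts virus entry, was at 173 and 212 CPM in PC and 1515 and 3502 CPM in NC, and Ifitm1 was at 48.0 and 63.6 CPM in PC and 630.4 and 674 CPM in NC. Il1rl1, the receptor for interleukin 33, was at 1.24 and 1.89 CPM in PC and 22.6 and 36.2 CPM in NC. Among those higher in PC, Paics, an enzyme of purine synthesis, was at 364 and 495 CPM in PC and 44.0 and 41.5 CPM in NC. The vitamin D receptor gene Vdr was at 124 and 123 CPM in PC and 23.6 and 21.0 CPM in NC. The sulfotransferase gene Sult1d1 was at 393 and 377 CPM in PC and 84.8 and 91.6 CPM in NC. The magnesium channel gene Trpm6 was at 23.9 and 22.9 CPM in PC and 2.46 and 3.24 CPM in NC. The replicates were close in Paics, Vdr and Sult1d1.

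The PC libraries differed from each other by 4-fold or more in 26 genes. PC 1 was higher in 11, led by Reg3b and Reg3g and including Retnlb, Plet1 at 54.1 CPM against 8.17 CPM in PC 2, and Ugt2b5 at 18.5 CPM against 2.43 CPM. PC 2 was higher in 15, of which 10 are pancreatic acinar genes such as Amy2a5, at 1.38 CPM in PC 1 and 15.9 CPM in PC 2. All 10 reached a mean of 5 CPM through NC 2, and they include near-identical amylase copies. Other genes as low in PC were not eligible unless high in NC, so the acinar share depends on this filter. Hoxd13, S100g and the ubiquitin-like gene Ubd, at 2.04 CPM in PC 1 and 11.3 CPM in PC 2, were also higher in PC 2.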
